A study of Mus musculus with 9 samples.

Results

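The 10 genes described here carry iron into cells, store it, pass it to mitochondria, send it back out and recover it from haem. They were taken as every non-control probe whose gene name or accession gave Trf, Tfrc, Steap3, Slc11a2, Slc25a37, Fth1, Ftl1, Slc40a1, Hmox1 or Hp. They are 10 of the 27573 genes named on the arrays and have 15 of 41174 probes. Of the 10, 8 passed the filter for the tests. The 2 Steap3 probes were well above background in the sample channel on 1 of 9 arrays. The only Fth1 probe was bright on all 9 arrays, but the scanner software marked its spot as an outlier on 1 of them.

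The samples are from 3 athymic Balb/c females (mice 832, 833 and 834), each of which gave 3 RNAs. Athymic mice lack a thymus and most T cells but keep granulocytes, monocytes, B cells and red cells. Blood was taken on day 0, before Hepa1-6 mouse hepatoma cells were injected under the skin, and again on day 10. The third group, the TIC fraction, is a fraction of the ground day 10 tumours enriched for infiltrating inflammatory cells. Its tissue label reads tumor infiltrating cells, although its source label reads blood. Blood and tumour RNA were extracted with different kits, so kit and tissue cannot be told apart. Each RNA was labelled with Cy5 and hybridised beside a Cy3-labelled reference, blood of a C57Bl/6 female that had no treatment, which was the same on all 9 arrays. All values called ratios are log2 Cy5 over Cy3 after loess normalization within each array, which bends the ratio to 0 along the range of brightness. Values of several arrays are given in the order of mice 832, 833 and 834.

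Most body iron circulates between red cells, the macrophages that clear old red cells, and the marrow that builds new ones. Transferrin carries iron in plasma, the transferrin receptor takes it into the cell, and ferritin stores what is not used. In developing red cells most of the iron goes to mitochondria for haem. Haptoglobin binds free haemoglobin, haem oxygenase opens the haem ring, and ferroportin exports the iron that is released. Iron regulatory proteins bind ferritin and transferrin receptor messages and set their translation and stability in opposite ways.

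The ferritin and transferrin receptor promoters are shown because the mRNAs they drive form the storage and uptake arms of this system. Promoters of 4 of the 10 genes, Ftl1, Fth1, Tfrc and Steap3, were matched in RefSeq (build GRCm38.p6). The 120 bases before a start site are given 5′ to 3′ on the gene's strand, with matches to CCNCNCCC, a CACCC-type box of the kind bound by KLF1, in capitals on either strand. For Ftl1 the stretch is chr7:45459887-45460006 on the minus strand, for Fth1 chr19:9982526-9982645 on the plus strand and for Tfrc chr16:32608776-32608895 on the plus strand.
Ftl1: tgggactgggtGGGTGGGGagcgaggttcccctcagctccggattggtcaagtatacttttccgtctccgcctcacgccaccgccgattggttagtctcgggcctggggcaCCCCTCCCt
Fth1: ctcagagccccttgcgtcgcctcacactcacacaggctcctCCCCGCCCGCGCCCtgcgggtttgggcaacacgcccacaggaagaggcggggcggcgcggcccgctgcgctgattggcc
Tfrc: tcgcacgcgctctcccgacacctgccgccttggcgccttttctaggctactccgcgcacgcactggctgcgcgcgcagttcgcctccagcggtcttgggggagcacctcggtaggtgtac
The Ftl1 and Fth1 stretches held 2 matches each and the Tfrc stretch 0. Over the full 300 bases all 4 genes had a match in at least 1 of their promoter windows, and 49.5% of 32851 windows had one. Steap3, Tfrc and Fth1 had several windows each and counted if any of them matched. The shares of windows are per single window, so counts of genes are not directly comparable with them. Other motifs searched were AGATAA of GATA factors (1 of the 4 genes, 11.2% of windows) and TGANNNNGC of NRF2 and BACH1 (1 of 4, 41.3%). On the gene strand only, CAGTGN, the loop letters of an iron-responsive element, was searched as well (2 of 4, 34.6%). Such elements lie in mRNA. The windows hold only the first bases of the message, so elements further along it could not be found by this search. The Ftl1 match was at -243, before the start site and so outside the message. Of the Steap3 matches only that at 8 lay after its start site, and 7.08% of windows had a match after the start. A match is a description of these letters only.

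The sample channel was bright in the tumour fraction and dim in day 10 blood. Spots called well above background made up, in Cy5, 24.3% to 36.9% in day 0 blood, 14.2% to 21.0% in day 10 blood and 48.2% to 55.1% in the TIC fraction, against 40.2% to 50.4% for the Cy3 reference. Loess removes such a gap, and at the iron genes other than Steap3 the value it subtracted from the ratio was 0.86 to 5.13 on TIC arrays, -4.73 to -0.30 on day 0 arrays and -5.85 to -0.47 on day 10 arrays. Centring each array on the median of its usable non-control spots makes no correction along brightness. It left the median of the 14252 tested genes 1.39 higher in the TIC fraction than in day 10 blood and 1.16 higher than in day 0 blood. These genes, called all genes in what follows, are those that passed a filter on Cy5 signal. Because the scales differ in this way, each gene is given as a ratio, as Cy5 spot intensity before normalization, and as a median-centred difference. In bulk RNA, fewer cells of a type and less RNA per cell cannot be told apart. The pairs of TIC arrays correlated at 0.885 to 0.989 over all genes, and the lower values are those of mouse 833. Among marker lists of other cells, platelet (6 of 6), B cell (6 of 6) and T cell genes (4 of 4) were called lower by ratio in the TIC fraction than in day 10 blood, and fibroblast genes were 2 higher and 3 lower of 5, against 34.4% higher and 33.1% lower of all genes. Summed Cy5 spot intensity before normalization ran, from day 10 blood to the TIC fraction, from 2352 to 5219 and 473 to 959 for the platelet genes, from 416 to 1013 and 379 to 619 for the B cell genes, from 222 to 259 and 310 to 646 for the T cell genes, and from 232 to 253 and 18317 to 140870 for the fibroblast genes. The T cell genes thus had the opposite order before normalization, and the B cell sums overlapped. The fibroblast genes had a median of -1.07 by ratio and 1.42 with median centring, so their order turned as well.

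**Figure D1:**
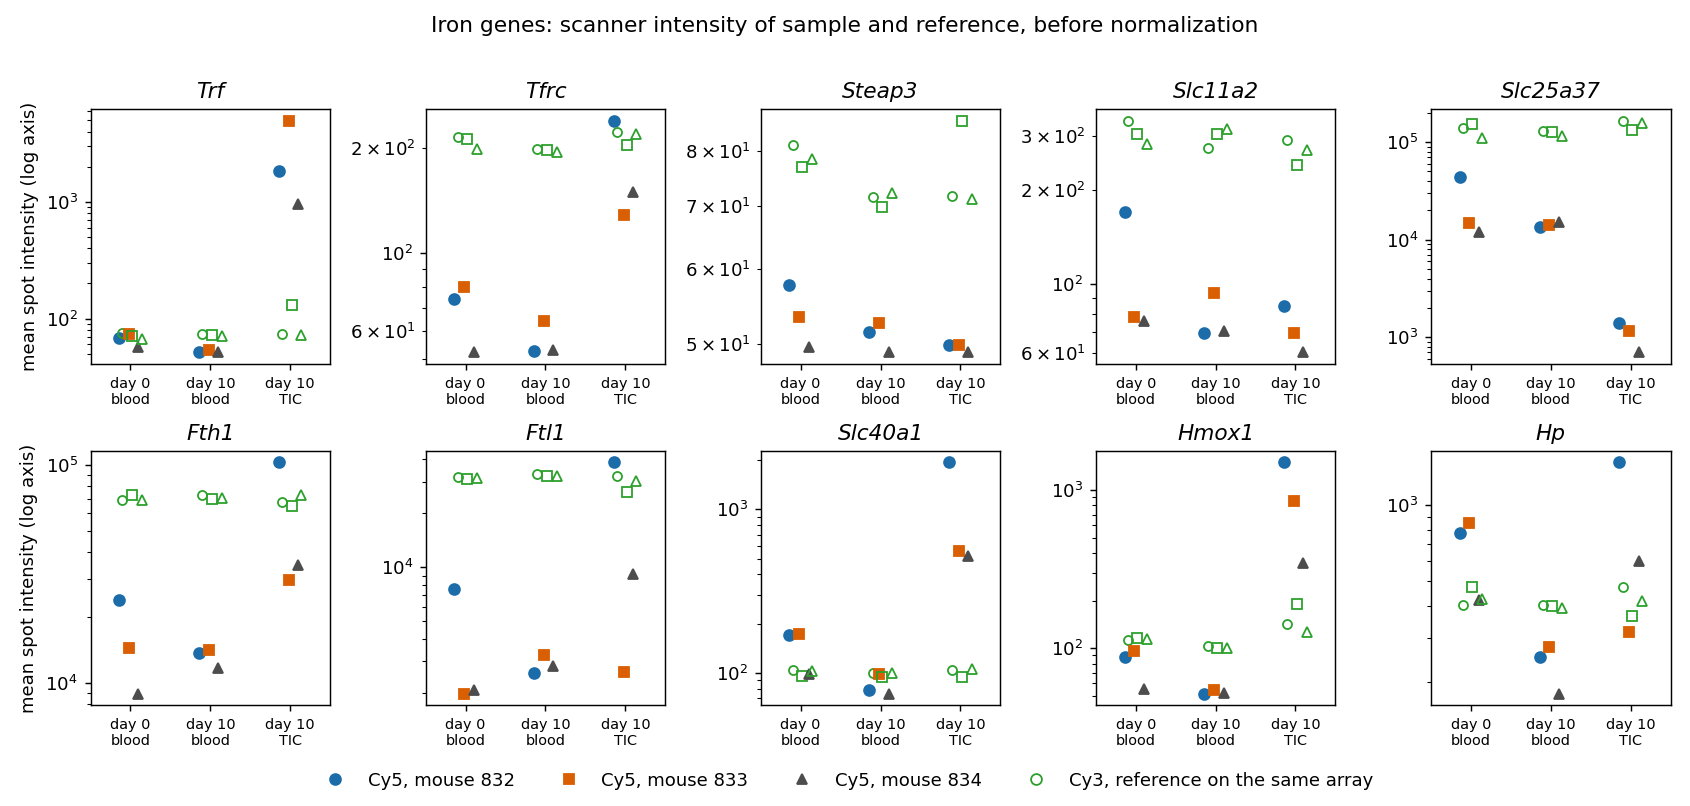
Mean spot intensity on a log axis for the 10 iron genes before normalization, with filled symbols for the sample (Cy5) and open symbols for the reference (Cy3) on the same array, 3 mice per group. The reference of Slc25a37 stays between 109783 and 165720 while its sample signal drops to between 700 and 1399 in the TIC fraction; Trf, Hmox1 and Slc40a1 are dim in both bloods and bright in the TIC fraction.

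Trf encodes transferrin, the plasma iron carrier, made mainly by liver cells. Its ratio was 0.24, 0.47 and 0.25 in day 0 blood, 0.06, 0.15 and 0.19 in day 10 blood, and 2.11, 3.81 and 2.22 in the TIC fraction. All TIC arrays lay above all blood arrays, with mouse 833 highest. The Cy5 intensity was 68.3, 73.5 and 56.7 in day 0 blood, 52, 54 and 51.3 in day 10 blood, and 1841, 4978 and 962 in the TIC fraction. Blood was close to the background of the array: 1 of the 3 day 10 arrays was well above it. Trf rose by 2.58 ± 0.39 (SE, n = 3 per group) against day 10 blood (limma, adjusted p = 0.000446) and by 2.39 ± 0.39 against day 0 blood (adjusted p = 0.000783). With median centring the differences were 4.53 and 4.26, so the direction did not depend on that choice. Among all genes Trf stood at percentile 98.5 of the ratio differences from day 10 blood and at 92.2 of the median-centred ones.

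Most tested markers of liver and hepatoma cells and of macrophages were, like Trf, called higher by ratio in the TIC fraction. Of 10 tested hepatocyte and hepatoma genes 7 were called higher and 2 lower in the TIC fraction than in day 10 blood, against 34.4% and 33.1% of all genes. Their Cy5 spot intensities before normalization summed to 507 to 535 in day 10 blood and 50316 to 103956 in the TIC fraction. Of 10 macrophage genes 6 were called higher and 0 lower, with sums of 523 to 561 and 8198 to 122862. With median centring the median difference from day 10 blood was 1.34 for the hepatocyte and hepatoma genes and 2.83 for the macrophage genes. It was 1.39 for all genes, and Trf stood at 4.53. Between 9 and 10 of the hepatoma genes and all 10 macrophage genes were well above background on TIC arrays. Their part in the rise of Trf was not tested.

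Tfrc encodes the transferrin receptor, which brings iron-loaded transferrin into endosomes and is abundant on immature red cells and dividing cells. It is the member with 10 spots on each array. Its ratio was -0.84, -0.58 and -0.66 in day 0 blood, -0.33, -0.10 and -0.15 in day 10 blood, and -1.91, -1.85 and -1.69 in the TIC fraction. The 3 groups did not overlap: day 10 blood was highest and the TIC fraction lowest. Cy5 intensity gave another order, at 74.1, 80.3 and 52.1 in day 0 blood, 52.4, 64 and 52.9 in day 10 blood, and 239, 129 and 150 in the TIC fraction. By ratio Tfrc was lower in the TIC fraction by -1.63 ± 0.12 against day 10 blood (limma, adjusted p = 6.38e-06), while with median centring it was higher by 1.0 ± 0.20 (adjusted p = 0.00184). From day 0 blood the differences were -1.13 ± 0.12 (adjusted p = 6.20e-05) and 0.88 ± 0.20 (adjusted p = 0.00411). The sign for Tfrc therefore depended on the normalization, and with Agilent's processed signals the difference from day 0 blood was -0.70 and not called (adjusted p = 0.163). On the median-centred scale it stood at percentile 40.7 of all genes, below the median of all genes of 1.39.

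Between the bloods Tfrc was 0.50 ± 0.12 higher at day 10, by 0.51, 0.48 and 0.51 in the 3 mice, and was not called (adjusted p = 0.124). With only the blood arrays in the fit Tfrc was called (adjusted p = 0.0426), the 1 iron gene of 8, against 5.24% of all genes, and with median centring the difference was -0.12.

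Steap3 encodes the endosomal reductase that turns ferric iron from transferrin into ferrous iron. Its Cy5 intensity was 49.0 to 57.7 on all 9 arrays for one probe and 47.4 to 56.1 for the other. Neither probe was well above background on any day 10 array of blood or the TIC fraction. A fit without the filter called Steap3 lower in the TIC fraction (limma, adjusted p = 0.00198 against day 10 blood and 0.00442 against day 0 blood), but with signals not well above background in both day 10 groups no fold is given.

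Slc11a2 encodes DMT1, which moves ferrous iron out of the endosome. The probe used lies on chromosome 15 at 100238119 to 100238178 (build mm8, as are all probe positions here). Its ratio was -0.19, -0.98 and -0.32 in day 0 blood, -0.05, 0.18 and 0.08 in day 10 blood, and -3.30, -2.73 and -2.90 in the TIC fraction. The TIC arrays lay below all blood arrays. Its Cy5 intensity was 171, 78.4 and 76.3, then 69.6, 93.8 and 70.7, then 84.8, 69.4 and 60.4, so the TIC and blood signals overlapped. Slc11a2 was lower by -3.05 ± 0.23 against day 10 blood (limma, adjusted p = 7.38e-06) and by -2.48 ± 0.23 against day 0 blood (adjusted p = 3.12e-05). With median centring the differences were -0.26 (adjusted p = 0.354) and -0.53 (adjusted p = 0.0826), in the same direction but not called, at percentiles 5.82 and 5.40 of all genes.

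The probes of Slc11a2 disagreed. A second probe at 100215936 to 100215995, well above background on 5 of 9 arrays, differed from day 10 blood by 0.19 ± 0.15 (adjusted p = 0.28 over all probes), and its Cy5 intensity was 124, 182 and 77 in the TIC fraction against 43.9 to 61.6 in blood. The third probe was well above background on 1 array. Which transcript each probe reads was not tested.

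**Figure D2:**
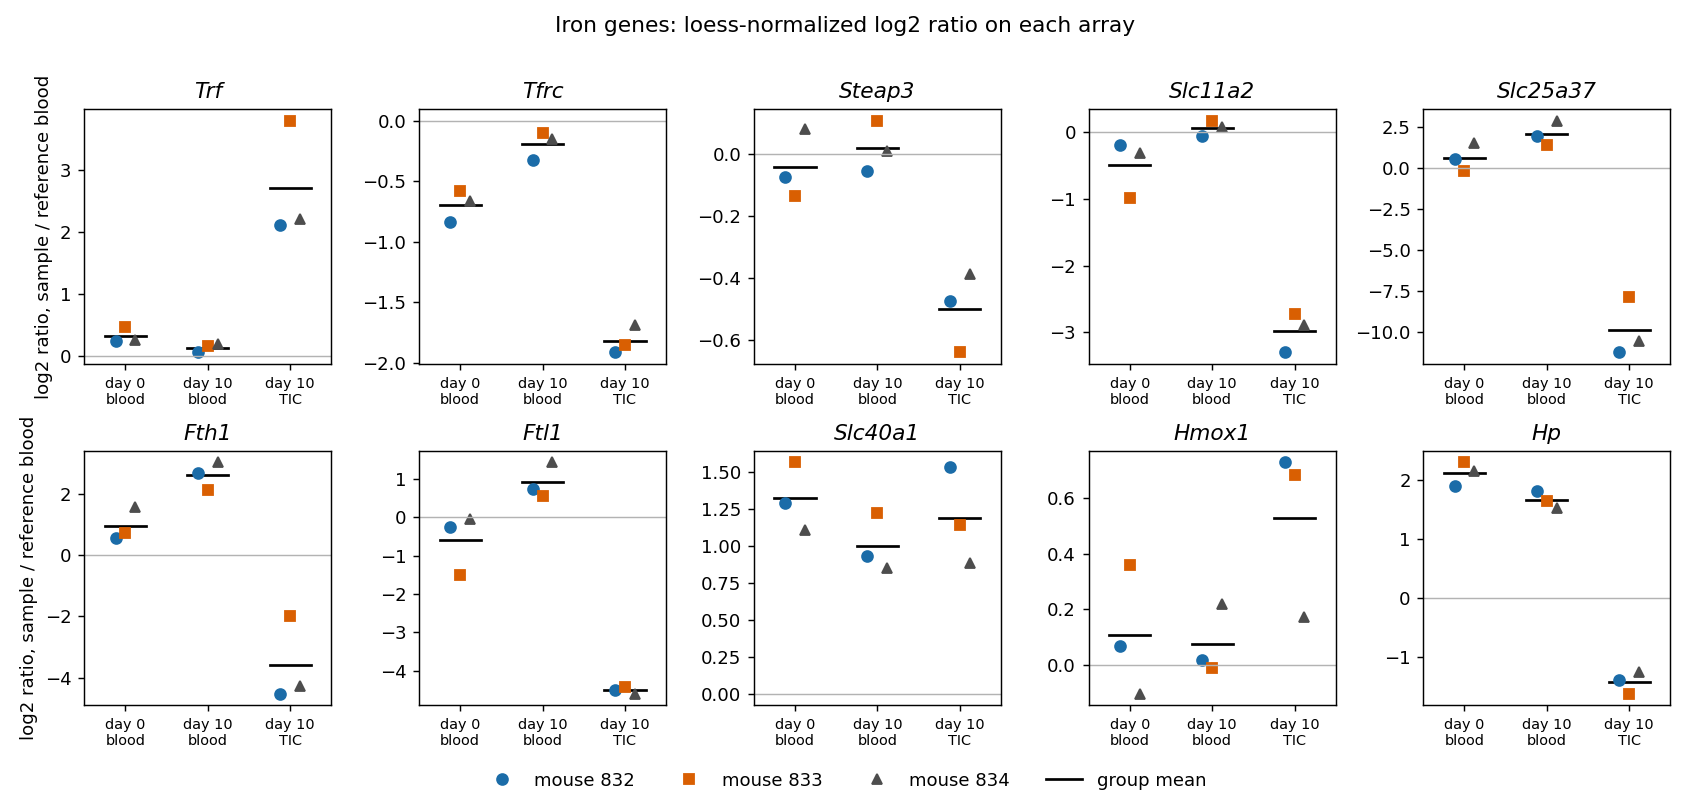
Loess-normalized log2 ratio of sample to reference blood for the 10 iron genes on each of the 9 arrays, with a bar at each group mean; the marked Fth1 spot and the dim Steap3 probe are drawn as well. The TIC values of Slc25a37 lie between -11.24 and -7.87, and those of Trf between 2.11 and 3.81.

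Slc25a37 encodes mitoferrin 1, the carrier that brings iron across the inner mitochondrial membrane in developing red cells. The probe used (chromosome 14, 68195293 to 68195352) had a ratio of 0.56, -0.17 and 1.54 in day 0 blood, 1.96, 1.42 and 2.89 in day 10 blood, and -11.24, -7.87 and -10.54 in the TIC fraction. Intensity in Cy5 was 43728, 14723 and 12022 in day 0 blood, 13366, 14298 and 15073 in day 10 blood, and 1399, 1161 and 700 in the TIC fraction. On both scales every TIC array lay below every blood array.

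Slc25a37 fell by 11.97 ± 0.84 on the log2 scale against day 10 blood (limma, adjusted p = 5.79e-06) and fell by 10.53 ± 0.84 against day 0 blood (adjusted p = 1.63e-05). With median centring it fell by 4.35 ± 0.43 (adjusted p = 5.41e-05) and fell by 4.69 ± 0.43 (adjusted p = 5.89e-05), so the direction held and the size did not. It stood at percentile 0.014 of all genes by ratio and 0.0351 with median centring against day 10 blood. A second probe at 68198468 to 68198527 differed by -5.67 ± 0.23 and -5.02 ± 0.23. The third, at 68415939 to 68415998, gave 43.7 to 50.8 in Cy5 and passed the background mark on 0 of 9 arrays.

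Erythroid markers were, like Slc25a37, lower in the TIC fraction. All 12 tested erythroid genes were called lower in the TIC fraction than in day 10 blood, with a median of -5.71 by ratio and -0.99 with median centring. The share of all genes called lower was 33.1%. Before normalization the summed Cy5 spot intensity of these genes was 30559 to 118293 in day 0 blood, 23394 to 35899 in day 10 blood and 3379 to 11271 in the TIC fraction, where 6 to 9 of the 12 were well above background. Between the bloods the erythroid median was 1.02 by ratio and 0.12 with median centring, while Slc25a37 was 1.45 and -0.35. The fall was not particular to erythroid genes. The 6 platelet genes had medians of -7.55 by ratio and -2.53 with median centring in the TIC fraction against day 10 blood. The part of the erythroid and platelet genes in the results for Slc25a37 and the other iron genes was not tested.

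Fth1 and Ftl1 encode the heavy and light chains of ferritin. The heavy chain oxidises iron and the light chain helps it to form a core. Fth1 was tested with the marked spot kept, a choice made after its values were seen. Its Cy5 intensity was 24034, 14393 and 8905 in day 0 blood, 13668, 14136 and 11650 in day 10 blood, and 102860, 29511 and 34767 in the TIC fraction, while its Cy3 intensity stayed between 64550 and 73022. Every TIC array was brighter than every blood array. The ratio after loess had the opposite order, at 0.56, 0.71 and 1.56, then 2.67, 2.12 and 3.02, then -4.52, -1.98 and -4.28.

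Fth1 accordingly differed between the TIC fraction and day 10 blood by -6.20 ± 0.63 by ratio (limma, adjusted p = 4.10e-05) and by 1.60 ± 0.47 with median centring (adjusted p = 0.0142). From day 0 blood Fth1 differed by -4.54 ± 0.63 (adjusted p = 0.000313) and 1.46 ± 0.47 (adjusted p = 0.0223). Both scales called Fth1, in opposite directions. With median centring the median of all genes was itself 1.39 against day 10 blood and 1.16 against day 0 blood, so Fth1 lay near it. Without the marked spot the ratio differences were -6.20 and -4.73. Mouse ferritin genes have pseudogene copies, and whether the probes also read those was not tested.

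Ftl1 showed the same split. Its ratio was -0.25, -1.50 and -0.03 in day 0 blood, 0.73, 0.57 and 1.44 in day 10 blood, and -4.50, -4.44 and -4.61 in the TIC fraction, so that the 3 groups did not overlap. Cy5 intensities were 7573, 1975 and 2078, then 2583, 3257 and 2837, then 38560, 2601 and 9160. The TIC array of mouse 833 lay within the range of blood, and that of mouse 832 stood far above it. Ftl1 was lower by -5.43 ± 0.37 by ratio against day 10 blood (limma, adjusted p = 5.38e-06) and higher by 1.59 ± 0.82 with median centring, the latter not called (adjusted p = 0.11). Compared with day 0 blood it was -3.92 ± 0.37 by ratio (adjusted p = 4.11e-05) and 1.44 ± 0.82 with median centring (adjusted p = 0.145). By ratio it stood at percentile 1.47 of all genes and with median centring at 54.2.

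Between the bloods the ferritin chains were higher at day 10 by ratio, by 1.66 ± 0.63 for Fth1 (adjusted p = 0.271) and 1.51 ± 0.37 for Ftl1 (adjusted p = 0.136). Neither was called. With median centring the differences were -0.14 and -0.15.

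Slc40a1 encodes ferroportin, the only known iron exporter of mammalian cells and a marker of iron-recycling macrophages. Its ratio was 1.29, 1.57 and 1.11 in day 0 blood, 0.93, 1.22 and 0.85 in day 10 blood, and 1.53, 1.14 and 0.89 in the TIC fraction. The 3 groups overlapped. Before normalization Cy5 read 169, 173 and 98.5, then 78.7, 98.2 and 74.3, then 1945, 557 and 517, over a Cy3 intensity of 94.6 to 105.5. By intensity all TIC arrays lay above all blood arrays. Slc40a1 differed from day 10 blood by 0.19 ± 0.19 (limma, adjusted p = 0.417) by ratio and by 2.84 ± 0.44 with median centring (adjusted p = 0.000477). From day 0 blood it differed by -0.13 ± 0.19 (adjusted p = 0.557) and 2.15 ± 0.44 (adjusted p = 0.00253). With median centring Slc40a1 stood at percentiles 75.7 and 70.7 of all genes, whose medians were 1.39 and 1.16.

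Hmox1 encodes haem oxygenase 1, the inducible enzyme that opens haem and frees its iron. Its ratio was 0.07, 0.36 and -0.11 in day 0 blood, 0.02, -0.01 and 0.22 in day 10 blood, and 0.73, 0.68 and 0.17 in the TIC fraction, where mouse 834 overlapped with blood. Its Cy5 intensity was 88, 96.1 and 55.3, then 51.4, 54.4 and 52.4, then 1500, 857 and 344. By intensity the TIC arrays were all above the blood arrays, and 1 of 3 day 10 blood arrays was well above background. The difference from day 10 blood was 0.45 ± 0.18 by ratio, which missed the threshold (limma, adjusted p = 0.0508), and 2.80 ± 0.40 with median centring (adjusted p = 0.000325). From day 0 blood it was 0.42 ± 0.18 (adjusted p = 0.0671) and 2.55 ± 0.40 (adjusted p = 0.000661). The median-centred values stood at percentiles 75.2 and 77.3 of all genes, whose medians were 1.39 and 1.16. With the Cy5 channel alone the differences were 0.89 (adjusted p = 0.0165) and 0.76 (adjusted p = 0.0324), both called. Without the TIC array of mouse 834 the differences were 0.63 (adjusted p = 0.0106) and 0.60 (adjusted p = 0.0142), and without the day 0 array of mouse 833 the difference from day 0 blood was 0.55 (adjusted p = 0.0383). Hmox1 is thus called or not depending on single arrays and settings. The sign was positive in each of the 21 alternatives of either comparison. The macrophage markers given beside Trf were higher in the same samples, and their part in the values of Hmox1 and Slc40a1 was not tested.

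Hp encodes haptoglobin, made by liver and stored in neutrophil granules. Its ratio was 1.89, 2.29 and 2.14 in day 0 blood, 1.81, 1.63 and 1.52 in day 10 blood, and -1.38, -1.62 and -1.26 in the TIC fraction. The groups did not overlap. In Cy5 the spot read 774, 847 and 422, then 251, 276 and 180, then 1477, 316 and 600, so the TIC arrays overlapped with day 0 blood and lay above day 10 blood. Hp was lower than in day 10 blood by -3.07 ± 0.15 by ratio (limma, adjusted p = 1.30e-06) and higher by 1.11 ± 0.42 with median centring (adjusted p = 0.0389). Against day 0 blood the values were -3.53 ± 0.15 (adjusted p = 1.28e-06) and -0.20 ± 0.42 (adjusted p = 0.674). With median centring Hp stood at percentiles 43.4 and 10.2 of all genes, below their medians of 1.39 and 1.16. Among 11 tested neutrophil genes 8 were called lower than in day 10 blood by ratio, against 33.1% of all genes. The Cy5 spot intensities of the 11 before normalization summed to 11723 to 18308 in day 10 blood and 22161 to 212511 in the TIC fraction, the opposite order. Their median was -1.79 by ratio and -0.0028 with median centring, and their part in the result for Hp was not tested.

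Between the bloods Hp was lower at day 10 by -0.45 ± 0.15 by ratio (adjusted p = 0.217) and by -1.31 ± 0.42 with median centring (adjusted p = 0.296). The day 10 arrays lay below the day 0 arrays on both scales, without a call.

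**Figure D3:**
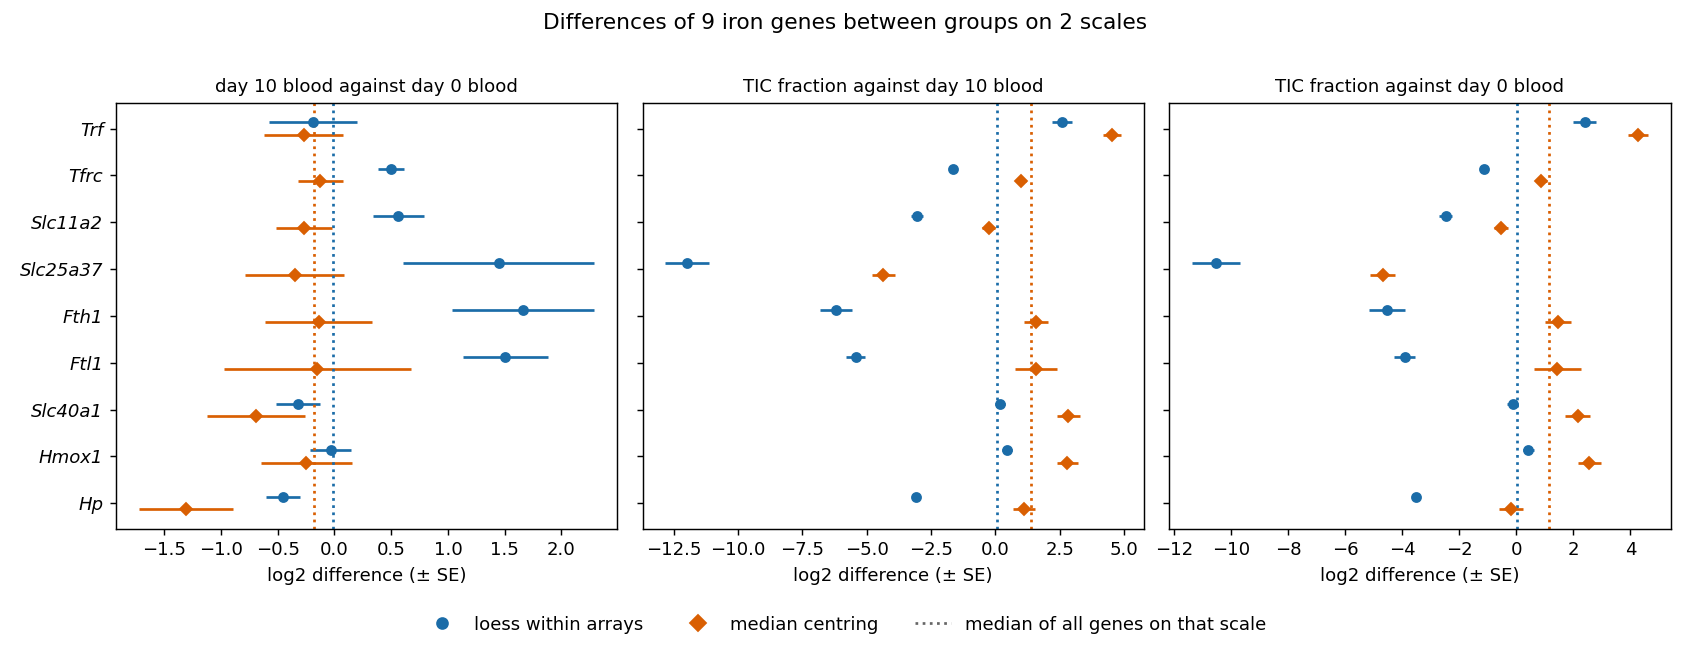
Differences between groups (log2, bars are the SE of the fit, 3 arrays per group) for 9 iron genes under loess and under median centring, with dotted lines at the median of all genes on each scale. Slc25a37 is below 0 and Trf above 0 on both scales in the TIC comparisons, while Tfrc, Fth1 and Ftl1 change side.

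Set side by side, the comparison of day 10 with day 0 blood called 0 of the 8 tested iron genes and 0% of 14252 genes. At an unadjusted p under 0.05 it had 4 of 8, Tfrc, Ftl1, Slc11a2 and Hp, against 14.8% of all genes. The groups did not overlap for 3 genes that were higher and 2 that were lower, against 15.7% and 17.2% of all genes. The median of the iron genes was 0.23 and that of all genes -0.01.

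The TIC fraction against day 10 blood called 6 of 8 iron genes, Trf higher and Tfrc, Ftl1, Slc25a37, Slc11a2 and Hp lower, against 67.6% of all genes. This share is near the background. The 1 higher and 5 lower genes stand against 34.4% and 33.1% of all genes, and for the same 6 the groups did not overlap, against 36.8% higher and 34.9% lower of all genes, and the median was -2.34 against 0.07. With median centring 6 of 8 were called as well, 5 of them higher (Trf, Tfrc, Slc40a1, Hmox1 and Hp) and Slc25a37 lower, against 75.3% of all genes, 72.1% higher and 3.25% lower. With the marked Fth1 spot kept, 7 of 9 were called, against 67.6% of all. Compared with day 0 blood the ratio called the same 6 of 8 in the same directions, against 65.4% of all genes, 31.7% higher and 33.7% lower, and their groups did not overlap, against 32.7% and 34.9%. Median centring called 5 of 8, with Trf, Tfrc, Slc40a1 and Hmox1 higher and Slc25a37 lower, against 71.9% of all, 66.2% higher and 5.73% lower. The TIC comparisons share the TIC arrays and are not independent of each other.

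The slides on which arrays were hybridised were not spread evenly. The TIC fraction and day 10 blood shared no slide, and on slide 2, with 2 TIC and 2 day 0 arrays, TIC minus day 0 blood was -9.40 for Slc25a37, 2.66 for Trf, -1.07 for Tfrc and -3.65 for Ftl1. On slide 3, with 3 day 10 bloods and 1 day 0 blood, the blood differences were 0.55, -0.12, 0.47 and 0.95 for the same genes. With slide as a block, the differences from day 10 blood were -9.95 for Slc25a37 (adjusted p = 0.00406), 2.78 for Trf (adjusted p = 0.029), -1.54 for Tfrc and -4.60 for Ftl1, all still called. With mouse and slide as blocks 3 of 8 iron genes were called against 7.79% of all genes, and Trf (adjusted p = 0.0771), Slc25a37 (adjusted p = 0.0632) and Slc11a2 (adjusted p = 0.0728) were not. The blocks use up residual degrees of freedom, and this comparison then runs through the day 0 arrays. Calls lost to slide or mouse and calls lost to lower precision cannot be told apart.

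A list of 54 other genes of iron handling gave the setting, of which 53 were on the array and 42 passed the filter. Between the bloods 0 were called and 10 of 42 had an unadjusted p under 0.05, against 14.8% of all genes. In the TIC fraction 19 were higher and 18 lower than in day 10 blood (median 0.22), against 34.4% and 33.1% of all genes, and 18 and 16 than in day 0 blood (median 0.38), against 31.7% and 33.7%. With median centring 31 were higher and 2 lower than in day 10 blood, against 72.1% and 3.25% of all genes, and 26 of the 42 lay above the median of all genes.

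The mitochondrial and iron-sulphur cluster genes split within their list, with 5 higher and 5 lower of 12 against day 10 blood, where 34.4% and 33.1% of all genes were called. With median centring 7 were higher and 1 lower, against 72.1% and 3.25% of all genes. Isca1, which helps assemble iron-sulphur clusters, fell by 12.21 ± 0.66 (limma, adjusted p = 2.06e-06) and was -4.89 with median centring, and Iscu, the assembly scaffold, was -6.77 by ratio and -0.46 with median centring. Hscb, a co-chaperone of cluster transfer, was -5.31 by ratio and turned to 0.42 with median centring. Between the bloods Iscu was 2.20 ± 0.39 higher (adjusted p = 0.0676), Glrx5 1.84 ± 0.40 (adjusted p = 0.106) and Hscb 1.34 ± 0.31 (adjusted p = 0.117). None of these passed.

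Among storage genes, Ncoa4, the receptor that delivers ferritin to lysosomes, fell by 10.01 ± 0.60 against day 10 blood (limma, adjusted p = 2.85e-06) and was -3.42 with median centring. Pcbp1, a chaperone that loads ferritin with iron, rose by 1.93 ± 0.29 (adjusted p = 0.000423), or 5.99 with median centring. Ftmt, mitochondrial ferritin, was well above background on 1 of 3 TIC and 2 of 3 day 10 blood arrays and was called lower by ratio (adjusted p = 0.000666), while its sign turned with median centring. Against day 0 blood Ncoa4 was -7.96 by ratio and -3.08 with median centring. Cp, the ferroxidase ceruloplasmin, was well above background on 3 of 3 TIC, 1 of 3 day 0 and 0 of 3 day 10 blood arrays. It passed the filter only through the TIC arrays, so no p or size is given for its higher call. Between the bloods Ncoa4 was 2.05 ± 0.60 (adjusted p = 0.186) and Pcbp1 -0.82 ± 0.29 (adjusted p = 0.243).

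Haem and haemoglobin genes were called higher for 7 of 9 and lower for 2 against day 10 blood, beside 34.4% and 33.1% of all genes. With median centring 7 were higher and 0 lower, beside 72.1% and 3.25% of all genes. For Hpx, haemopexin, which binds free haem, and Flvcr2, a membrane transporter, the values behind the call are those that passed the filter. No p or fold is therefore given for them. Slc48a1, which moves haem out of the lysosome, was lower by -6.63 ± 0.46 and -0.76 with median centring. Blvrb, a biliverdin reductase of red cells, was the gene of the list with the smallest p between the bloods, at 1.73 ± 0.25 (adjusted p = 0.0659), and 0.28 with median centring.

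Of 9 uptake genes 2 were called higher and 6 lower against day 10 blood, beside 34.4% and 33.1% of all genes. With median centring the balance turned, to 7 higher and 0 lower, beside 72.1% and 3.25% of all genes. Ltf, the neutrophil iron binder lactoferrin, was lower by -4.47 ± 0.50 (limma, adjusted p = 7.17e-05) and -0.999 with median centring. Exoc6, an exocyst subunit that serves transferrin cycling, was -1.98 ± 0.12 by ratio and 1.04 with median centring. Slc39a8, a zinc and iron importer, was well above background on 0 of 3 arrays of either blood, so no p or fold is given. Lcn2, lipocalin 2, which binds bacterial siderophores, was called lower than in day 0 blood (adjusted p = 1.94e-05), with 1 of 3 TIC arrays well above background, so no size is given. Of the regulators 3 of 7 were called higher and 2 lower against day 10 blood, beside 34.4% and 33.1% of all genes. Under median centring 7 were higher and 0 lower, beside 72.1% and 3.25% of all genes. Bach1, a haem-sensing repressor of Hmox1, was -1.11 ± 0.20 by ratio and 1.13 with median centring. Ireb2, an iron regulatory protein, was called higher (adjusted p = 0.000505) without a fold, as day 10 blood was below background. Tmprss6, a hepcidin-suppressing protease, was well above background only on TIC arrays. It passed the filter through these alone, so no p or fold is given.

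**Figure D4:**
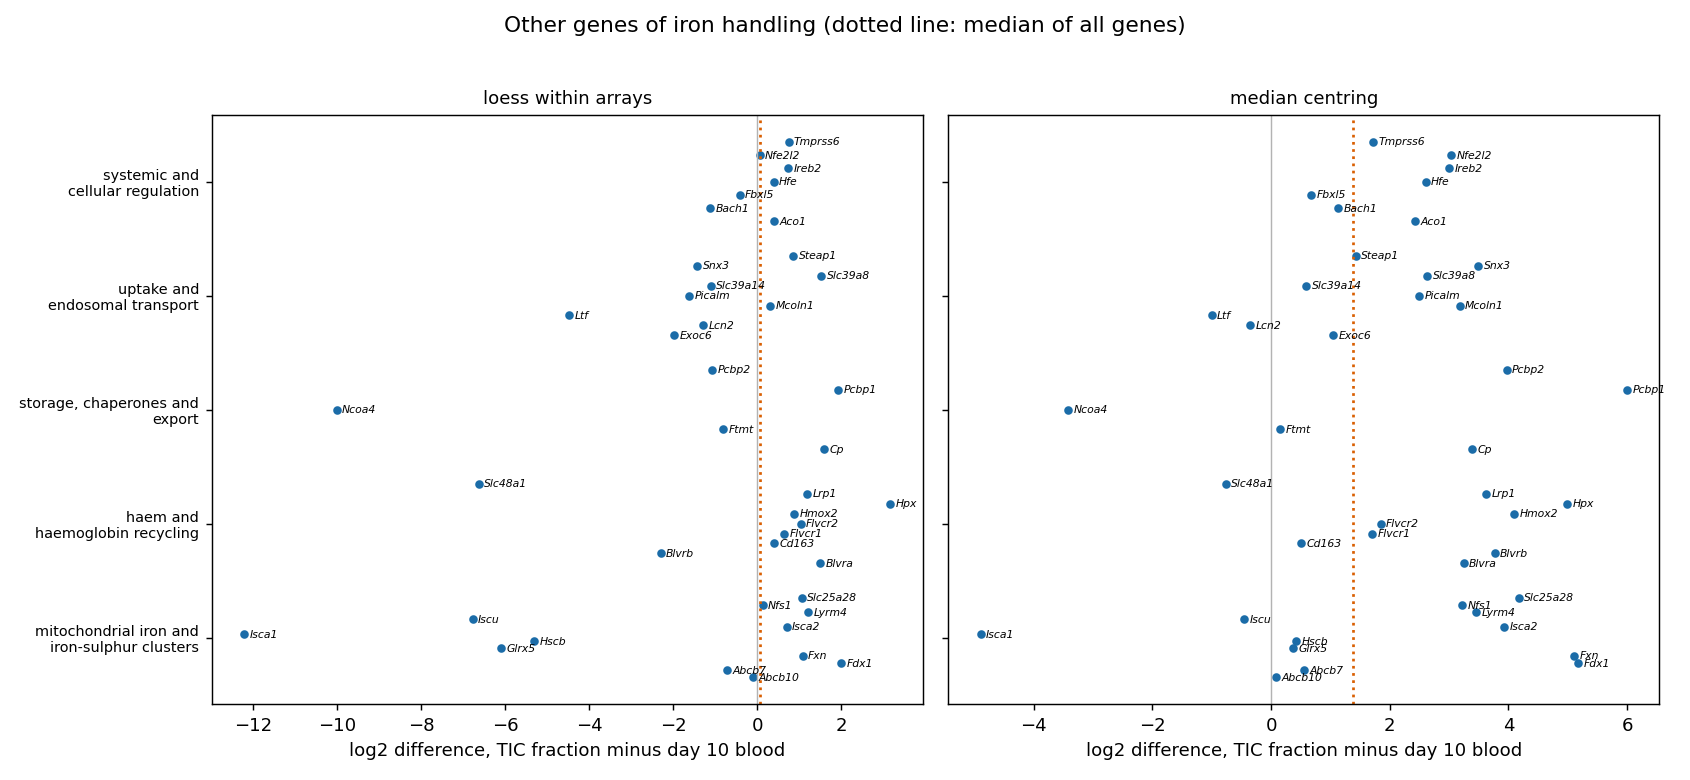
Log2 difference of the TIC fraction minus day 10 blood for the 42 tested genes of the list, by sublist, under loess (left) and median centring (right), with a dotted line at the median of all genes. Isca1 and Ncoa4 lie farthest below 0 on both scales.

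As a description of pattern, the genes whose ratios followed each iron gene most closely over the 9 arrays were found by Pearson correlation. The arrays form 3 groups and share a reference, so high values are common, and no p is given. Ccndbp1 (0.9997), Ube2r2 (0.999) and Isca1 (0.9985) were closest to Slc25a37. Hspa9 (0.9983) was closest to Trf, Sppl2b (0.993) and Eif2ak1 (0.9928) to Tfrc, Iqcd (0.9982) to Ftl1 and Cyp4x1 (0.9989) to Slc11a2. Lyst (0.9972) was closest to Hp and Cog7 (0.9686) to Hmox1. Slc40a1 had the weakest match, Tex2 at 0.8929.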

How the data were processed

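RNA of 3 mice in 3 groups of 3 was measured on 9 two-colour Agilent arrays. The authors deposited scanner tables holding spot and background intensity per channel and the log10 ratio, sample (Cy5) to reference (Cy3). Feature Extraction has version 10.5.1.1 per the file headers and 9.1.3.1 in the submitters' processing notes. The deposited series table repeats these log10 ratios, scaled as log10 with sample over reference, and its median is 0 on each array. The authors' log10 ratio was turned to log2 as an alternative.

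Background was corrected by normexp with an offset of 50, without spots whose local background was marked non-uniform, and log2 ratios were normalized by loess (span 0.3, 4 iterations) with limma 3.58.1 in R 4.3.3. Control and outlier spots had weight 0, and 213 of 41174 probes lacked a usable spot on 1 or more arrays. The filter asked for a Cy5 signal well above background on 3 or more of 9 arrays, which 20152 probes met; 19994 with all 9 values were kept. The probe with the highest mean intensity stood for a gene, giving 14252 genes. Names came from RefSeq accessions for 23374 probes, symbols for 6733, synonyms for 2919 and the files for 8148. Groups were compared by limma's lmFit and eBayes on group alone (6 residual degrees of freedom) and Benjamini-Hochberg adjustment over all genes (0.05). The fit was tested on simulated data. Arrays, 3 a group, limit the precision.

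The numbers 832, 833 and 834 name the same animals in each group, so the arrays are paired by mouse. Deviations from group means correlated at 0.186, 0.345 and 0.243 between the day 0 and day 10 blood of the same mouse. Between blood of either day and the TIC fraction of the same mouse they correlated at -0.0565 to 0.0649 (9 same-mouse pairs in all). Pairs of different mice gave -0.225 to 0.119 (18 pairs). The main fit left the pairing out. Named genes are the 10 members, up to 3 of each sublist of the iron list with the smallest p per comparison, and the 3 genes most like each member. Members and lists were chosen with earlier results of these data known. The Fth1 settings, the other outlier settings and unnormalized Cy5 were chosen after seeing the data. Alternatives covered background, scaling, filter, probe choice, blocks, samples and left-out arrays.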

Additional observations from a re-analysis of the deposited data

How the results depend on the processing

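Direction was decided by the scaling for several genes, and the cause was not tested. With median centring the reversed differences were, from day 0 to day 10 blood, -0.12 (Tfrc), -0.15 (Ftl1), -0.14 (Fth1, outlier spots kept), -0.35 (Slc25a37) and -0.27 (Slc11a2). Against day 10 blood the TIC fraction then gave 1.0 (Tfrc), 1.59 (Ftl1), 1.60 (Fth1) and 1.11 (Hp), and against day 0 blood 0.88, 1.44, 1.46 and, for Slc40a1, 2.15. Cy5 spot signal without normalization gave -0.21 (Tfrc), -0.13 (Ftl1), -0.48 (Slc25a37), -0.33 (Slc11a2) and -0.15 (Fth1) between the bloods. Against day 10 blood it gave 1.40 (Tfrc), 1.75 (Ftl1), 1.85 (Fth1) and 1.47 (Hp), and against day 0 blood 1.19 (Tfrc), 1.63 (Ftl1), 1.70 (Fth1), 2.45 (Slc40a1) and 0.022 (Hp). The Agilent processed signals and the deposited log ratio gave, between the bloods, -0.072 (Slc25a37), 0.19 (Slc40a1) and 0.14 (Hmox1), and for Slc40a1 against day 10 blood -0.58. An offset of 0 gave 0.092 (Slc40a1) and 0.059 (Hmox1) between the bloods and -0.96 for Slc40a1 against day 10 blood. For Hmox1 between the bloods slide as a block gave 0.18, and leaving out single bloods -0.14 to 0.094. For Slc40a1 against day 10 blood slide gave -0.31, and against day 0 blood left-out arrays gave -0.31 to 0.016.

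The replicate block by mouse left the counts of called iron genes at 0, 6 and 6 and called 32 genes of all between the bloods in place of 0. With mouse and slide as blocks, 3 iron genes and 1110 of all were called against day 10 blood and 4432 of all against day 0 blood, and Hmox1 between the bloods was 0.15 and Slc40a1 against day 10 blood -0.16. Slide alone called 4274 against day 10 blood.

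Over all genes between the bloods, 763 were called with Agilent processed signals, 757 with the deposited log ratio, 15 with an offset of 0, 147 with probes above background on all 9 arrays and 747 with only these groups, which also called 1 iron gene (Tfrc). Probes above background on all 9 arrays left 2955 and 2909 called for the TIC fraction. Leaving out an array gave 0 to 18 between the bloods (18 without day 0 blood of mouse 834). Of the genes called against day 10 blood, 51% were higher by ratio, 95.7% with median centring, 63.2% with processed signals, 23.4% with probes above background on all 9 arrays, 35% with slide and 19.3% with mouse and slide as blocks. Against day 0 blood 48.5% became 92% with median centring. Slc25a37 stayed lower in 22 of 22 alternatives and Trf higher in 21 of 21 in either TIC comparison. Values near background in blood (Trf, Hmox1, Steap3) limit the size of a fold.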
